A study of Mus musculus with 6 samples.

Results

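The 40 most abundant nuclear tRNAs of the mouse duodenum were chosen by their share of the tRNA counts in wild-type males. In each mouse the count of every tRNA was divided by the sum over all 182 nuclear tRNAs of the table, this share was averaged over the 3 wild-type mice, and the tRNAs of ranks 1 to 40 were taken. They are 40 of 182 nuclear tRNAs, which in turn are 182 of the 1630 short transcripts counted. Because the wild-type shares made the choice, the order and the size of these shares in wild type describe the choice and are not findings. The table lists the tRNAs by RNAcentral identifier, and 0 of the 182 identifiers could be paired with a tRNA name, an anticodon or a locus in the annotations used here, so the tRNAs are called by rank.

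Nuclear tRNAs are transcribed by RNA polymerase III (Pol III), which is brought to them by TFIIIC bound to the A box and the B box inside the transcribed sequence, and by TFIIIB placed upstream. Each tRNA carries an amino acid to the ribosome and reads its codons through the anticodon. Genes in many copies may give identical tRNAs, so 1 identifier can stand for several loci, and the abundance of a tRNA is known to depend on gene copy number, transcription, processing and decay. Polr3B is the second-largest subunit of Pol III and forms part of its active centre, so a loss of function in this gene concerns transcription of the whole class.

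Small RNAs of the superior duodenum were sequenced from 3 male Polr3B-/+ mice and 3 male wild-type C57Bl/6N mice, all culled after an overnight fast. The heterozygotes carry 1 copy of the C57BL/6N-Polr3b<em7(IMPC)Tcp>/Tcp allele, a small insertion predicted to shift the reading frame and truncate the protein early. The allele is present in every cell of the animal, the tissue was flushed duodenum homogenised in bulk, and the age of these mice was not given in the sources used here. Heterozygous and wild-type animals came from separate matings, so genotype and parentage cannot be told apart. The 3 heterozygous columns of the table are not tied to individual animals by the labels and are called heterozygous mice A, B and C. The genotype could not be checked in the counts, because only short transcripts were kept and the Polr3b mRNA is not one of them.

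The counts of short transcripts summed to between 2114055 and 6037849 per mouse, of which the nuclear tRNAs held 563405 to 2228495, or 21.4% to 36.9%. The least counted of the 40 tRNAs had 2781 counts in the mouse where it was lowest, and the widest 95% Wilson interval of any share in any mouse spanned 0.161 percentage points. Such intervals cover counting error only, and the differences between mice described here were far wider. Reads that fit several near-identical tRNAs were divided among them by Salmon's estimate, which adds an uncertainty to each tRNA that the interval does not hold. The shares are shares of counts, not divided by transcript length. Of the epithelial miRNA precursors searched for as a check of the tissue, Mir192, which marks intestinal epithelium, was counted in all 6 mice at 5 to 43 counts, and the other 6 found (Mir194-1, Mir194-2, Mir200a, Mir200b, Mir215 and Mir429) were each at 0 in at least 1 mouse. The 7 summed to 7 to 82 counts per mouse, so the check of the tissue rests on few counts. In a bulk tissue, fewer cells of a type and less RNA per cell cannot be told apart.

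The pool was uneven. The tRNA of rank 1, URS00002064F6_10090, took 9.38% ± 3.03 (SD, n = 3) of the nuclear tRNA counts in wild type and 9.07% ± 2.64 (n = 3) in the heterozygotes. Ranks 1 to 3 together took 24.8% ± 3.29 in wild type and 25.9% ± 2.52 in the heterozygotes, and ranks 1 to 10 took 51.1% ± 8.83 and 54.8% ± 3.19. The wild-type mean exceeded 1% of the pool for 28 of the 40 tRNAs, and that of rank 1 was 14.96 times that of rank 40. All 40 together held 86.6% ± 3.85 of the pool in wild type and 87.8% ± 0.722 in the heterozygotes.

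Taken mouse by mouse, the 40 tRNAs held 88.6%, 87.4% and 87.3% of the pool in heterozygous mice A, B and C, and 85.0%, 91.0% and 83.8% in wild type replicates 1, 2 and 3. The 3 heterozygotes lay inside the range of the wild-type mice, and the means differed by 1.16 percentage points, less than the wild-type SD. The difference was -0.237 percentage points without wild type replicate 3, 0.358 without replicate 1 and 3.35 without replicate 2, and 0.742 without heterozygous mouse A, so its sign and size rested on single mice. No test was made of this sum, because the wild-type arm chose its members.

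The 3 most abundant tRNAs changed places between mice. Rank 1 held 11.1%, 10.02% and 6.09% of the pool in heterozygous mice A, B and C, and 9.68%, 12.2% and 6.20% in wild type replicates 1, 2 and 3. It was the most abundant tRNA in heterozygous mouse B and in wild type replicates 1 and 2, and its lowest shares, in heterozygous mouse C and wild type replicate 3, came from different genotypes. Rank 2 (URS000044BAE3_10090) held 6.29%, 6.12% and 7.27% in the heterozygotes and 7.63%, 4.99% and 10.7% in the wild-type mice. Its 3 heterozygous shares lay between the lowest and the highest wild-type share, and it was the most abundant tRNA in wild type replicate 3 only. Rank 3 (URS000059900F_10090) held 11.4%, 7.77% and 11.8% in the heterozygotes and 8.46%, 10.3% and 4.19% in the wild-type mice. It led the pool in heterozygous mice A and C, and its range in the heterozygotes overlapped that of wild type.

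Ranks 4, 5 and 6 had similar wild-type means, and wild type replicate 3 was the lowest mouse for ranks 4 and 5 but not for rank 6. Rank 4 (URS0000416E93_10090) held 7.56%, 7.07% and 3.84% in heterozygous mice A, B and C and 4.97%, 8.60% and 1.22% in wild type replicates 1, 2 and 3. Its highest and its lowest share were both from wild-type mice, 7.03-fold apart, the widest ratio of any of the 40. Rank 5 (URS00002DDD59_10090) held 8.07%, 6.79% and 4.06% in the heterozygotes and 4.65%, 6.29% and 2.52% in wild type. The groups overlapped, with wild type replicate 3 the lowest of the 6. Rank 6 (URS0000415026_10090) held 3.26%, 5.47% and 8.03% in the heterozygotes and 5.83%, 3.64% and 3.43% in wild type. For this tRNA the widest spread was among the heterozygotes, mouse C being the highest and mouse A the lowest of all 6.

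Ranks 7 to 10 lay near 3% to 4% of the pool. Rank 7 (URS00003A4B65_10090) held 3.55%, 2.27% and 2.01% in heterozygous mice A, B and C and 3.17%, 3.31% and 5.64% in wild type replicates 1, 2 and 3. Heterozygous mice B and C lay below all wild-type mice and mouse A lay above wild type replicates 1 and 2, so the groups overlapped. Rank 8 (URS00004F0321_10090) held 2.49%, 2.15% and 2.36% in the heterozygotes and 1.89%, 2.99% and 3.64% in wild type. Rank 9 (URS00002D40C8_10090) held 1.88%, 2.504% and 3.03% in the heterozygotes and 2.95%, 2.33% and 3.22% in wild type, the groups overlapping for both. Rank 10 (URS00001F9D54_10090) held 2.79%, 3.59% and 3.78% in the heterozygotes and 3.85%, 4.05% and 0.582% in wild type. Here 5 mice lay close together, and wild type replicate 3 was 6.96-fold below the highest.

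**Figure D1:**
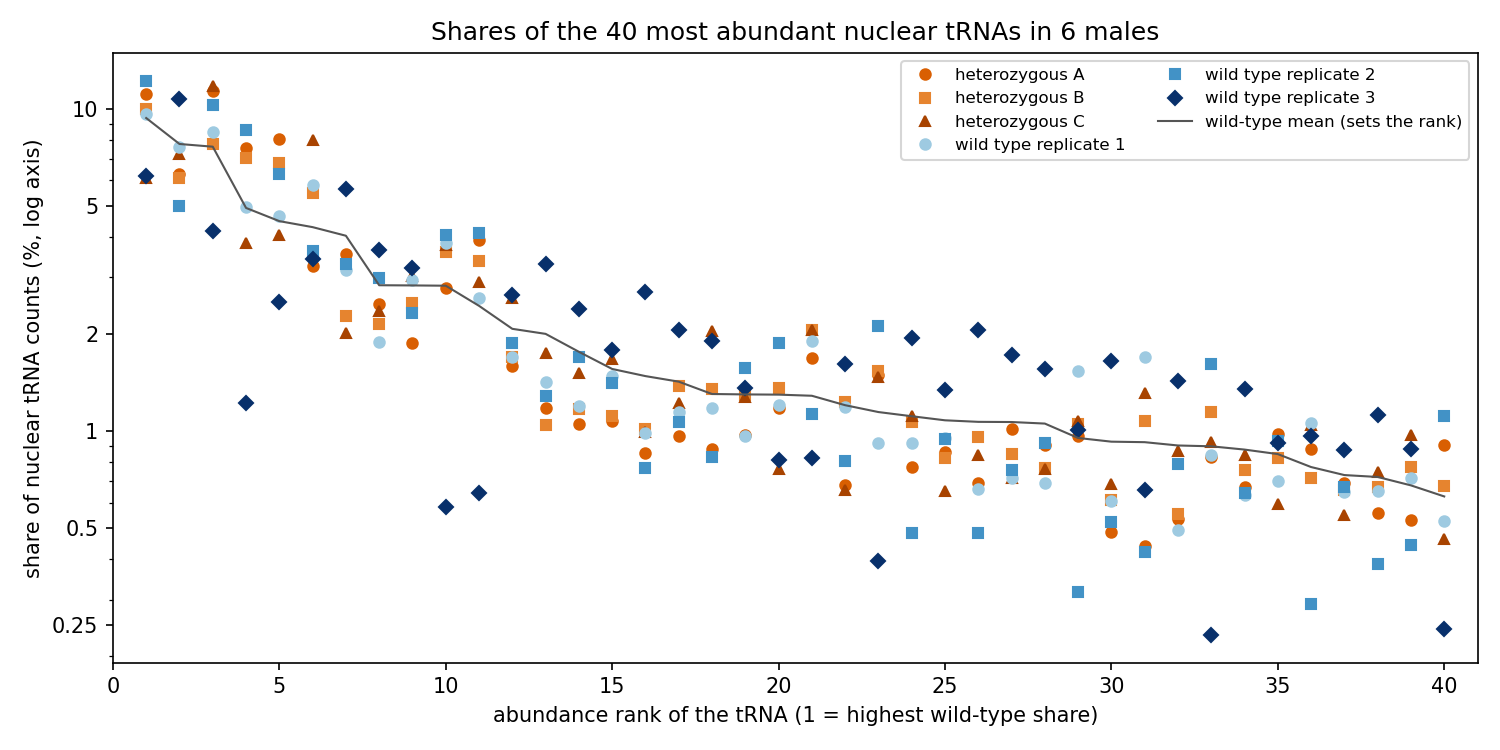
Share of the nuclear tRNA counts (per cent, log axis) of each of the 40 tRNAs, by abundance rank in wild type, with 1 point per mouse (orange for the 3 heterozygotes, blue for the 3 wild-type mice) and a line through the wild-type means. The ranges of the 2 genotypes overlap at 39 of the 40 ranks, and wild type replicate 3 (dark blue diamonds) lies at an edge for 30 of the 40 tRNAs.

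The order of neighbouring tRNAs was not resolved by 3 mice. For all 39 pairs of neighbouring ranks the wild-type means differed by less than the larger of their SDs. At the threshold, ranks 39 and 40 had wild-type means of 0.678% and 0.627%, and ranks 41 and 42, just outside, had 0.549% and 0.545%. Ranked on the heterozygous mice instead, 39 of the 40 tRNAs were kept, and ranked on all 6 mice, all 40 were. Within single mice, 35 to 38 of the 40 were among the 40 most abundant, 25 were among them in every mouse, and these included all of ranks 1 to 9. The membership was thus nearly the same whichever genotype ranked the tRNAs, while the places within it moved. On the heterozygous ranking, ranks 23, 33 and 36 each gained 9 places, rank 30 lost 12 and fell just outside, and rank 16 lost 9.

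With all 3 wild-type mice included, the spread between mice was wider in wild type than in the heterozygotes. The coefficient of variation of a tRNA's share had a median of 42.5% over the 40 tRNAs in the wild-type mice and 18.6% in the heterozygotes, and it was higher in wild type for 34 of 40. The 40 tRNAs come from the same 6 mice and do not repeat the comparison. Rank 23 held 1.49%, 1.54% and 1.47% in heterozygous mice A, B and C and 0.920%, 2.12% and 0.394% in wild type replicates 1, 2 and 3. Its heterozygous shares were the least variable of all 40, with a coefficient of variation of 2.33% against 77.4% in wild type, and they sat inside the wild-type range. The ratio of the highest to the lowest share over the 6 mice ran from 1.60 to 7.03 with a median of 2.48, and over 5 mice, without wild type replicate 3, the median was 1.71. Wild type replicates 1 and 2 differed by a median absolute log2 difference in share of 0.50. For the pairs of heterozygotes it was 0.25, 0.47 and 0.28, and for the wild-type pairs with replicate 3 it was 0.91 and 1.09. Much of the wider wild-type spread thus came with wild type replicate 3. Replicates 1 and 2 still differed somewhat more than any pair of heterozygotes.

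Wild type replicate 3 stood apart from the other 5 mice. It had the highest share of the 6 for 21 of the 40 tRNAs and the lowest for 9. The next most frequent extreme was wild type replicate 2, with 9 highest and 10 lowest. Heterozygous mouse B was at an extreme for 2 tRNAs in all. Measured against the median of the other 5 mice, the shares of wild type replicate 3 were more than 2-fold away for 18 tRNAs, 9 above and 9 below, and ranged from 0.154 to 2.99 times that median. The same count was 5 for wild type replicate 2, 2 for heterozygous mouse C, 1 each for heterozygous mouse A and wild type replicate 1, and 0 for heterozygous mouse B.

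The departure of wild type replicate 3 split the 40 tRNAs into groups that moved in bulk. The 9 tRNAs lowest in it (ranks 3, 4, 5, 10, 11, 21, 23, 33 and 40) together held 10.9% of its pool, against 28.7% and 39.3% in wild type replicates 1 and 2 and 38.6%, 34.02% and 31.3% in heterozygous mice A, B and C. The 21 highest in it together held 54.8%, against 31.7% and 29.1% in the other wild-type mice and 28.8%, 29.4% and 32.8% in the heterozygotes. In the sum of the 21 the other wild-type mice lay within the heterozygous range, in the sum of the 9 they lay just below and just above it, and in both wild type replicate 3 was farthest from the rest. The groups were formed from these same shares, so the sums describe the size of the departure and do not test it. For 6 of the 9 tRNAs lowest in wild type replicate 3 the highest mouse was wild type replicate 2, so the widest distance lay within wild type.

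**Figure D2:**
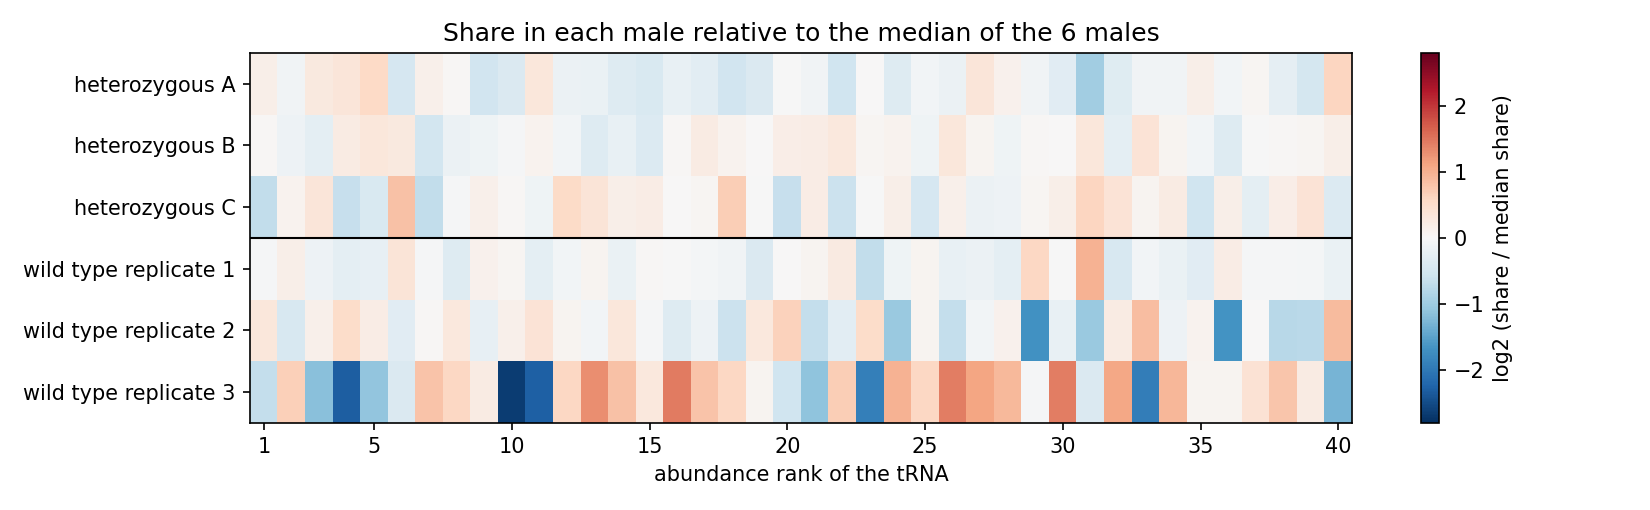
Log2 ratio of each tRNA's share in a mouse to the median share of the 6 mice, for abundance ranks 1 to 40 (horizontal axis) in 3 heterozygous and 3 wild-type mice (rows). Red is above and blue below the median, and the row of wild type replicate 3 holds the deepest colours of both kinds.

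Pairs of mice showed the same pattern. Over the 40 tRNAs, the median absolute log2 difference in share was 0.78 to 1.09 for the 5 pairs that include wild type replicate 3 and 0.23 to 0.53 for the 10 pairs that do not. The closest pair of all was heterozygous mouse B with wild type replicate 1, at 0.23, a pair of different genotypes. The 3 pairs of heterozygotes differed by 0.25, 0.47 and 0.28, and wild type replicates 1 and 2 by 0.50. Spearman's rho across the 40 tRNAs, given as a description because the tRNAs share a pool, was 0.324 to 0.479 for pairs with wild type replicate 3 and 0.715 to 0.913 for the others. With that mouse left aside, pairs of different genotypes differed by 0.23 to 0.53 and pairs of the same genotype by 0.25 to 0.50.

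**Figure D3:**
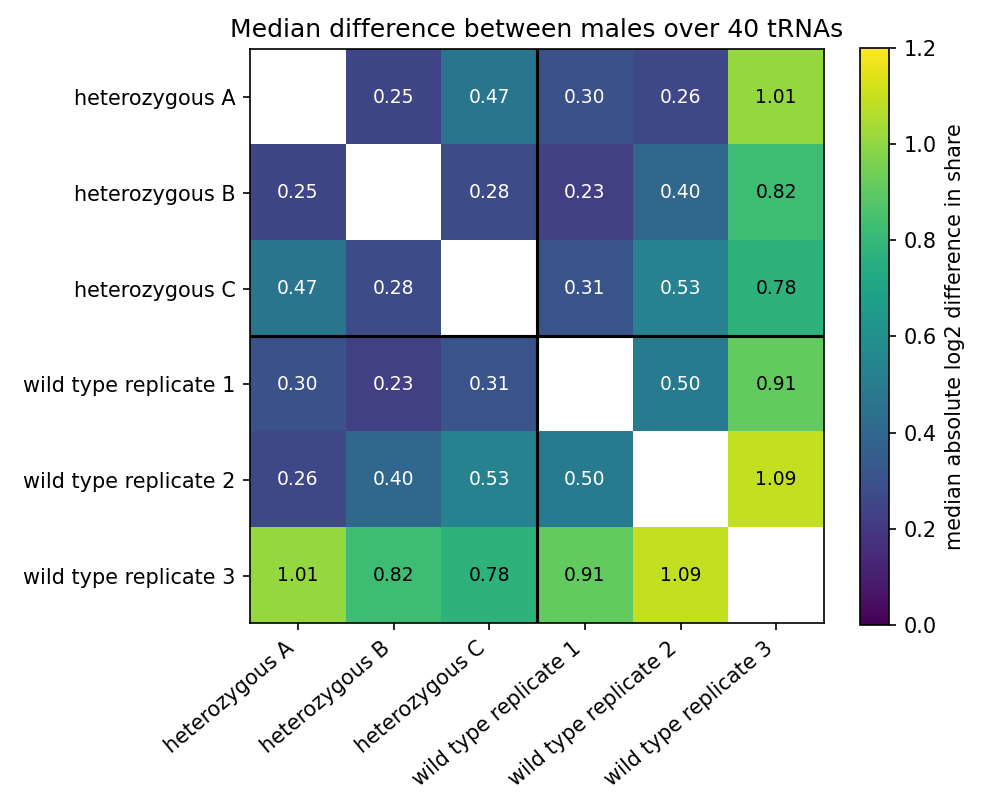
Median absolute log2 difference in share over the 40 tRNAs for every pair of the 6 mice, with lines between the genotypes. The row and column of wild type replicate 3 hold values of 0.78 to 1.09, and every other pair lies at 0.53 or below, within and between genotypes.

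The less abundant tRNAs departed in the same mouse. Of 83 further nuclear tRNAs with at least 10 counts in every mouse, 39 were more than 2-fold away from the median of the other mice in wild type replicate 3, and 10 to 28 were so in each of the other 5. Several properties of the library moved with it. Wild type replicate 3 had the largest total and the highest tRNA share of counts, 36.9%. In heterozygous mouse A that share was 35.6%, and 1 tRNA of the 40 was more than 2-fold away. The part of depth and of the tRNA share in the departure was not tested. Its summed counts of epithelial miRNA precursors were 13.6 CPM, scaled to the total of short RNA counts and within the range of 3.31 to 16.7 over the other 5 mice, as were its smooth muscle precursors at 3.15 (0.7 to 4.61) and immune cell precursors at 2.15 (0 to 3.51). No row was found by name for the precursors searched for as markers of red blood cells and liver. These sums rest on 0 to 82 counts per mouse, and the part of cell composition in the departure was not tested.

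The heterozygotes were compared with wild type to ask whether a partial loss of Pol III function changed the makeup of the tRNA pool. A change shared by all nuclear tRNAs would not show on this scale, because it is relative to their sum. The nuclear tRNAs held 35.59%, 29.97% and 21.46% of short RNA counts in heterozygous mice A, B and C. In wild type replicates 1, 2 and 3 they held 26.65%, 21.38% and 36.91%, so the groups overlapped. None of the 40 tRNAs passed 10% FDR with edgeR's quasi-likelihood test scaled to the sum of nuclear tRNA counts, where 0 of all 560 tested transcripts passed (0%). All 40 entered the test. At an unadjusted p under 0.05 there were 0 of the 40 and 14 of the 560, and DESeq2 also called 0 of the 40. The smallest unadjusted p was 0.239, for rank 7, and the adjusted p was 0.997 for every one of the 40. Log2 fold changes (heterozygous over wild type, within the pool) ran from -0.64 to 0.59 with standard errors of 0.47 to 0.65.

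By sign, 25 of the 40 log2 fold changes were below 0 and 15 above, with a median of -0.16. Over all 560 tested transcripts 254 were below 0 and the median was 0.06. Of the 94 other nuclear tRNAs tested, 67 were below 0 and the median was -0.29, so the 40 were not set apart from their class. The split of the 40 changed with the scaling and without a single mouse. With TMM factors computed over the nuclear tRNAs alone, 19 were below 0 and 21 above, with a median of 0.04, and with TMM over all tested transcripts 27 were below and 13 above, with a median of -0.24. Without wild type replicate 3 the split was 19 and 21 and the median 0.02, and 18 of the 40 tRNAs changed direction. All 21 tRNAs highest in that mouse had a lower mean in the heterozygotes, which fell to 9 of 21 without it. All 9 tRNAs lowest in it had a higher mean, which fell to 4 of 9 without it. Since both groups were formed by that mouse's own shares, these counts are largely fixed by the choice and support nothing further. The difference between genotype means was smaller than the wild-type SD for 36 of the 40.

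**Figure D4:**
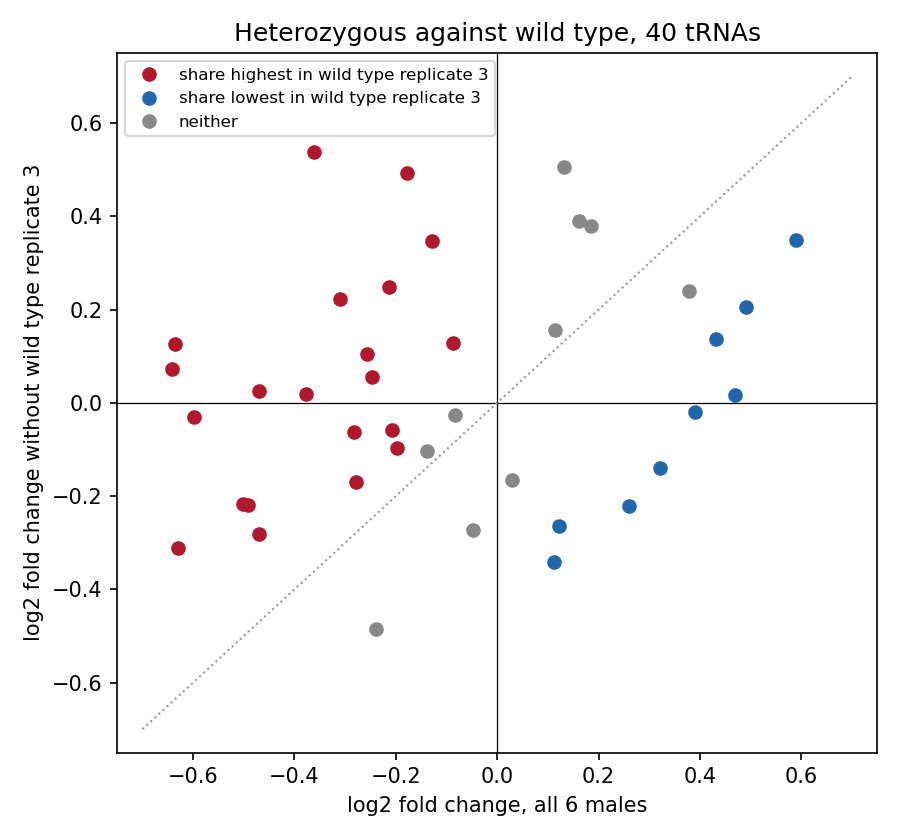
Log2 fold change of each of the 40 tRNAs (heterozygous over wild type) with all 6 mice (horizontal axis) and without wild type replicate 3 (vertical axis), coloured by whether the share was highest, lowest or neither in that mouse, with a dotted line of equality. Points in the upper left and lower right, 18 in all, changed direction.

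The tRNAs with the smallest p of each direction show how far these values carry. Among tRNAs with higher means in the heterozygotes, rank 21 (URS0000145C5E_10090) held 1.68%, 2.06% and 2.06% in mice A, B and C and 1.91%, 1.13% and 0.824% in wild type replicates 1, 2 and 3. Wild type replicate 1 lay above heterozygous mouse A, so the groups overlapped. Its log2 fold change was 0.59 ± 0.50 (SE, unadjusted p = 0.264 with edgeR's quasi-likelihood test), and leaving out each mouse in turn gave 0.35 to 0.98. For rank 5 the log2 fold change was 0.49 ± 0.54 (unadjusted p = 0.377 with the same edgeR test), with 0.21 to 0.81 on leaving out each mouse. Both kept their sign in all 6 of these fits, at sizes that changed more than 2-fold.

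Among tRNAs with lower means, rank 7 had a log2 fold change of -0.63 ± 0.51 (SE), which became -0.31 without wild type replicate 3. Rank 30 (URS000042F13F_10090) held 0.487%, 0.609% and 0.686% in the heterozygotes and 0.608%, 0.523% and 1.65% in wild type. Wild type replicates 1 and 2 lay among the heterozygotes and wild type replicate 3 far above. Its log2 fold change of -0.64 ± 0.55 (unadjusted p = 0.266 with edgeR) became 0.07 without that mouse. Rank 16 behaved alike, with 0.855%, 1.01% and 0.993% in the heterozygotes and 0.984%, 0.766% and 2.70% in wild type, and its log2 fold change of -0.64 became 0.13.

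Of the tRNAs of ranks 1 to 4, rank 1 differed least between genotypes, with a log2 fold change of -0.05 ± 0.52 (SE), and its sign changed with the scaling. Rank 2 had -0.25 ± 0.51, which became 0.06 without wild type replicate 3. Rank 3 had 0.43 ± 0.53, positive in all 6 fits that leave out 1 mouse, at 0.14 to 0.70. Rank 4 had 0.32 ± 0.65, which became -0.14 without wild type replicate 3. For none of these did the estimate exceed its standard error.

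A single tRNA of the 40 had shares that did not overlap between genotypes. Rank 25 held 0.860%, 0.827% and 0.652% in the heterozygotes and 0.951%, 0.945% and 1.34% in wild type. The gap between the highest heterozygote and the lowest wild-type mouse was smaller than the SD of either group. Its log2 fold change was -0.47 ± 0.48 (SE, unadjusted p = 0.340 with edgeR), and -0.56 to -0.28 on leaving out each mouse. Among the 134 nuclear tRNAs tested, 6 did not overlap (4.48%), all lower in the heterozygotes, so 1 of 40 was near the rate of all tested tRNAs and is no result about the 40. On shares of all short RNA counts, the only one of the 40 not to overlap was rank 3, which was higher in the heterozygotes, and on TMM-scaled CPM there was none, where 5 of the 134 tested nuclear tRNAs (3.73%) did not overlap on each of these scales. Without wild type replicate 3, 4 of the 40 did not overlap, ranks 10 and 25 being lower and ranks 26 and 34 higher in the heterozygotes, beside 15 of 123 nuclear tRNAs (12.2%) with at least 10 counts in every mouse.

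After rank 4, the tRNAs of widest range were rank 10, described above, and rank 33, with 0.831%, 1.15% and 0.928% in the heterozygotes and 0.842%, 1.62% and 0.233% in wild type, a ratio of 6.94. For ranks 4, 10 and 33 the lowest mouse was wild type replicate 3 and the highest wild type replicate 2. The narrowest was rank 37, with 0.692%, 0.658% and 0.547% in the heterozygotes and 0.648%, 0.670% and 0.873% in wild type. Rank 19 followed, with 0.973%, 1.30% and 1.27% in the heterozygotes and 0.966%, 1.57% and 1.36% in wild type. Rank 35 held 0.982%, 0.827% and 0.592% in the heterozygotes and 0.6997%, 0.930% and 0.916% in wild type, and like ranks 19 and 37 it overlapped between genotypes.

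For rank 36 a different wild-type mouse stood apart. It held 0.879%, 0.716% and 1.04% in the heterozygotes and 1.06%, 0.291% and 0.967% in wild type replicates 1, 2 and 3, where replicate 2 was the low one. Its log2 fold change of 0.19 ± 0.56 (SE) became -0.21 without wild type replicate 2.

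The evenness of the whole pool was summarised as the effective number of tRNAs, the exponential of the Shannon entropy of the 182 shares, which would be 182 if all were equal. It was 36.5, 41.96 and 41.8 in heterozygous mice A, B and C and 44.1, 34.5 and 48.9 in wild type replicates 1, 2 and 3. The wild-type mice held both the highest and the lowest value, wild type replicate 3 having the most even pool. The means were 40.1 ± 3.12 and 42.5 ± 7.29 (SD, n = 3 each), with p = 0.6 in a two-sided exact permutation test, for which 3 mice against 3 cannot go below 0.1. The difference of -2.38 became 0.80 without wild type replicate 3.

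Other RNAs connected with Pol III were set beside the 40 on the same scale, counts relative to the nuclear tRNA sum. Of the other 142 nuclear tRNAs, 94 were tested, 0 passed 10% FDR with edgeR and 1 had an unadjusted p under 0.05, with a median log2 fold change of -0.29. That median was 0.02 without wild type replicate 3, as it was for the 40. Of 18 entries for 5S rRNA, the ribosomal RNA made by Pol III, 10 were tested and none passed, nor did Rmrp (-0.16), the RNA of RNase MRP, or the Y RNAs Rny1 (0.08) and Rny3 (0.51). The 22 mitochondrial tRNAs, which are made by the mitochondrial polymerase and not by Pol III, had log2 fold changes below 0 throughout, with a median of -1.07, and 0 passed 10% FDR while 8 had an unadjusted p under 0.05. Their counts summed to 499953, 204957 and 203182 in heterozygous mice A, B and C, and to 201810, 1310727 and 1178397 in wild type replicates 1, 2 and 3. Only in wild type replicate 2 did they exceed the nuclear tRNA counts (974161). The nuclear tRNA counts that set the scale were 1481762, 719382 and 613317 in heterozygous mice A, B and C. In wild type replicates 1, 2 and 3 they were 563405, 974161 and 2228495. On this scale wild type replicate 1 lay just above the heterozygotes and wild type replicate 2 far above them. The 22 share the same mice, and the fits that leave out 1 mouse were not summarised for them.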

How the data were processed

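Per the study's methods, the authors size-selected small RNA, removed base methylation, trimmed reads with Cutadapt 2.10 and quantified them against all RNAs of the GRCm39 build with Salmon 0.13.2, keeping transcripts under 300 bases. The values are Salmon's estimated counts, deposited by the authors as whole numbers without normalization. They used DESeq2 through tximport. The rows with RNAcentral identifiers were taken to be the nuclear tRNAs. Columns named wild type were used for that group, and the other 3, which carry the authors' short name for a fly mutant, were taken as the heterozygotes, the only other group. Depth was 2114055 to 6037849 counts, summed over short transcripts only.

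Counts were tested with edgeR 4.0.16 in R 4.3.3: filterByExpr (minimum count 10), library size set to the sum of nuclear tRNA counts, dispersions from estimateDisp, and the quasi-likelihood fit and F test (glmQLFit, legacy = FALSE). Benjamini-Hochberg adjusted p-values over 560 transcripts were compared with 0.1. Standard errors are the log2 fold change over the square root of F. The code was tested on simulated data first. P values measure the spread between these mice, 3 per genotype, each labelled as a separate sample. Alternatives were other scalings and filters, DESeq2 1.42.0, robust empirical Bayes, a fit on the tRNAs alone and leaving out each mouse. Ranking on wild type replicates 1 and 2 for the combined share, and the overlap count without wild type replicate 3, were chosen after seeing the data. The exact permutation test used scipy 1.17.1.

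The members and lists were chosen with earlier results of these data known. Ranks 1 to 10 are named with identifiers, as are the 2 higher and 2 lower of smallest p; ranks that do not overlap, vary most or least, or gain or lose most places are given by rank. Names of other RNAs come from GENCODE M21 (GRCm38), in which 1136 of 1448 Ensembl identifiers were found. U6, Rpph1, Rn7sk and Vaultrc5 were searched for and 0 rows of these names were found. No sequence of a member was used here. The females and the other species were not analysed here.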

Additional observations from a re-analysis of the deposited data

How the results depend on the processing

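None of the 40 tRNAs passed 10% FDR under any alternative run. Over all tested transcripts, where edgeR called 0, the count was 1 with DESeq2 scaled to the tRNA sums, 3 with DESeq2's own size factors, 13 with every transcript of at least 1 count tested, 1 with at least 10 counts required in every mouse and 1 with robust empirical Bayes; leaving out a mouse gave 0 to 9, with 9 without heterozygous mouse A and 3 without wild type replicate 1. None of these calls was 1 of the 40, and the cause was not tested. Non-overlapping members numbered 0 on TMM-scaled CPM and 4 without wild type replicate 3. The difference in effective number was -6.35 to 0.80 on leaving out each mouse, positive without wild type replicate 3 only, and that in combined share was -0.24 to 3.35 percentage points.

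For the 20 members given individually, 7 of 140 log2 fold changes under other scalings, under DESeq2 or in a fit on the tRNAs alone reversed. Rank 1 became 0.001 with TMM over all transcripts, 0.142 with library totals, 0.065 with TMM over the tRNAs and 0.071 with DESeq2's size factors in edgeR or DESeq2. Rank 35 became 0.002 with library totals and 0.091 with TMM over the tRNAs. On leaving out a mouse, 13 of 120 reversed, with ranges of -0.27 to 0.19 (rank 1), -0.49 to 0.056 (rank 2), -0.14 to 0.99 (rank 4), -0.22 to 0.61 (rank 10), -0.95 to 0.13 (rank 16), -0.31 to 0.019 (rank 19), -0.019 to 1.19 (rank 23), -0.93 to 0.072 (rank 30), -0.34 to 0.85 (rank 33), -0.26 to 0.092 (rank 35) and -0.21 to 0.48 (rank 36). The other 9 kept their sign. Reversals came without wild type replicate 3 for ranks 2, 4, 10, 16, 23, 30 and 33, without wild type replicate 2 for ranks 1, 19 and 36, without heterozygous mouse C for ranks 1 and 35, and without heterozygous mouse B for rank 33. No paired analysis was possible, because neither the sample labels nor the digits that end the other column names tie a heterozygous animal to a wild-type one. Every member had at least 2781 counts in every mouse, so counting error in its share was small, but the error of Salmon's division of reads is not known here.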
